A study of Mus musculus with 4 samples.

Results

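RBPJ peaks at promoters in replicate 1, of genes with no promoter peak in replicate 2, were examined in alveolar macrophages (AMs). These macrophages live in the airspace of the lung. The genes were chosen by the peak lists themselves. A gene belonged to the set when a replicate 1 peak touched the window of 1 kb on each side of at least 1 of its transcription start sites (TSSs) and no replicate 2 peak touched any of these windows. Of 21755 protein-coding genes, 2233 met this rule, which is 10.3% (95% Wilson interval 9.87 to 10.7). They are called replicate 1-only genes. Another 7792 genes (35.8%) had a promoter peak in both libraries, 370 (1.70%) in replicate 2 only and 11360 (52.2%) in neither. The replicate 1-only genes held 3412 promoter peaks, out of 106228 peaks in the list of replicate 1.

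RBPJ is the DNA-binding protein through which the Notch pathway reaches its target genes. Without a Notch signal it can hold corepressors at these genes, and the cleaved intracellular domain of a Notch receptor turns it into an activating complex. In macrophages RBPJ is known from work on inflammatory and tissue-resident programs, and Notch ligands are among the signals that a macrophage meets in its tissue.

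All libraries came from WT C57BL/6J mice that were 9 weeks old according to the methods of the study. AMs were collected by bronchoalveolar lavage and sorted, and RBPJ-bound chromatin was precipitated and tagmented on beads (HT-ChIPmentation). The 4 samples were 2 RBPJ libraries and 2 input libraries, and the inputs entered only through the peak calling of the authors. Separate animals are not mentioned in the labels, so differences between the replicates may be technical. Both lists held the promoters of macrophage genes. All 5 general macrophage markers had promoter peaks in both libraries, as did 10 of 12 AM markers, with 1 in replicate 1 only and 1 in neither.

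The lists differed in length, with 106228 peaks in replicate 1 and 47224 in replicate 2, covering 35.6 and 14.4 Mb. Of the 10025 genes with a promoter peak in replicate 1, 22.3% (21.5 to 23.1) had none in replicate 2. Conversely, 4.53% (4.10 to 5.01) of the 8162 genes with a promoter peak in replicate 2 had none in replicate 1. The share of 22.3% is the background for every group of genes below. Sequencing depth was not analysed here, so its part in a missing peak was not tested. A gene without a peak in replicate 2 has no value there, and the lists give no level below the calling threshold.

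The sequences around the summits of 7 replicate 1-only genes hold the RBPJ core. Most summits do not, since 9.63% of replicate 1-only genes and 9.86% of genes bound in both had the core no farther than 50 bp from their strongest summit. The 7 genes were chosen among 138 named genes because the plus strand holds the core TGGGAA within 50 bp of the summit and the window overlaps no annotated exon or gene. The genes are Mcm5, a subunit of the replicative helicase, Zfp691, a zinc finger gene, Nod2, an intracellular sensor of bacterial peptidoglycan, Cpne5, a calcium-binding copine on the AM identity list, Hdac2, a histone deacetylase found in corepressor complexes, Fas, a death receptor, and Cxcr2, a chemokine receptor of neutrophils. Each line gives 101 bases of the plus strand of mm10 (sequence of GRCm38) centered on the summit, with the RBPJ core in capitals. All 7 windows had their summit upstream of the nearest TSS of their gene. In Cpne5 and Hdac2 the marked core lay outside the called peak, which spanned chr17:29238695-29238799 and chr10:36973947-36974049.
Mcm5, chr8:75109375-75109475: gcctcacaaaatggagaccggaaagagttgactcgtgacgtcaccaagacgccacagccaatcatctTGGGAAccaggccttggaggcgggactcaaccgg
Zfp691, chr4:119174230-119174330: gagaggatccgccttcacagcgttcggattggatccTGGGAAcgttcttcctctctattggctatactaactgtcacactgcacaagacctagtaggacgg
Nod2, chr8:88646851-88646951: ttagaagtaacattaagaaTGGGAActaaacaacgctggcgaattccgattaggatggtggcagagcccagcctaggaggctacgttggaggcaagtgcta
Cpne5, chr17:29238705-29238805: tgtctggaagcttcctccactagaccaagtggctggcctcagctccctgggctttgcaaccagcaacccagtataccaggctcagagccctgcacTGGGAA
Hdac2, chr10:36973923-36974023: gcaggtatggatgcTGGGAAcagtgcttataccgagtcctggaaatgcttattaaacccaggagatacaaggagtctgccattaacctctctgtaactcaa
Fas, chr19:34290500-34290600: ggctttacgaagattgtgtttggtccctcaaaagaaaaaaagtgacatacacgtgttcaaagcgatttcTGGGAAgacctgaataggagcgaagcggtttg
Cxcr2, chr1:74153218-74153318: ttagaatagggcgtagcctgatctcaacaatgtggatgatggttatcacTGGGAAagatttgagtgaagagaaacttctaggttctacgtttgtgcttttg

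The peaks behind these sequences ranged from strong to marginal. Fold enrichment is the value of the authors' peak caller for the summit over background, and −log10 q is its significance. Zfp691 had the strongest of the 7 peaks, at 7.66-fold and a −log10 q of 18.5, with the summit 85 bp upstream of the TSS and the center of the RBPJ core 11.5 bp from the summit. Mcm5 followed at 7.61-fold and 16.5 in −log10 q, with the summit 144 bp upstream. Its window also held the motifs of CREB and ATF, NFY and the HES and HEY factors. In Cxcr2 the center of the core lay 1.5 bp from the summit, while the peak was 90 bp wide and reached 3.55-fold and a −log10 q of 3.32.

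Replicate 1-only genes had weaker replicate 1 peaks than genes bound in both, a description of the values that the rule draws on. The strongest promoter peak of a replicate 1-only gene had a median fold of 4.57 (quartiles 3.81 and 5.33), against 7.10 (quartiles 5.58 and 9.64) in genes bound in both. The median −log10 q was 6.07 (3.96 to 8.40) against 14.9 (9.22 to 24.7), and the median width was 194 bp against 522 bp. Most replicate 1-only genes held a single interval of enrichment. A share of 56.2% had 1 promoter peak, against 21.2% of genes bound in both, and 28.4% had 2. The same was seen from the other library, because the 370 genes bound in replicate 2 only had a median fold of 4.27 and a median −log10 q of 3.79 there, against 5.69 and 6.95 in genes bound in both.

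When the 10025 genes were ranked by the −log10 q of their strongest replicate 1 promoter peak, the part missing from replicate 2 grew step by step. In the strongest 10% of genes, 3 genes lacked a replicate 2 peak (0.299%, 0.102 to 0.876). In the fifth class the share was 11.6% (9.74 to 13.7), and in the weakest class 651 genes lacked one (64.9%, 61.9 to 67.8). Weak peaks were nevertheless not all missing, since the remaining genes of the weakest class had a replicate 2 peak.

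**Figure D1:**
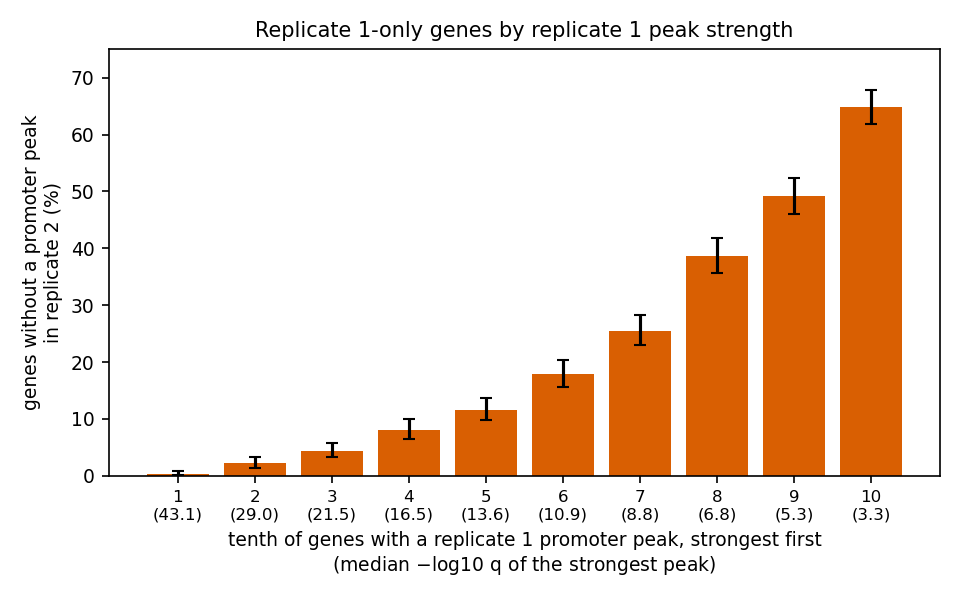
Share of genes without a replicate 2 promoter peak (vertical axis, percent) among genes with a replicate 1 promoter peak, in 10 classes of the −log10 q of the strongest replicate 1 promoter peak (horizontal axis, strongest first, with the median −log10 q of each class). Bars are shares with Wilson 95% intervals as lines, and they rise from 0.299% in the first class to 64.9% in the last.

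Some genes had a strong replicate 1 peak and no replicate 2 peak in their promoter windows, though in some a replicate 2 peak lay just beyond. The highest value belonged to Hist1h1t, which encodes a testis-specific linker histone. Its peak at chr13:23696393-23699190 was 2798 bp wide, reached 20.8-fold and a −log10 q of 80.1, and had its summit 2694 bp downstream of the TSS, so that only the edge of the peak lay in the promoter window. A replicate 2 peak lay 1603 bp from that TSS. The next value was that of N4bp2l2 at chr5:150665293-150666256, with 12.7-fold, a −log10 q of 38.3 and a summit 108 bp upstream of the TSS. Ifrd2, an interferon-related regulator, had a peak at chr9:107587235-107587746 of 11.9-fold and a −log10 q of 34.7 with its summit 34 bp upstream.

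Further leading members fell into those with a summit at the TSS and those with a summit beyond the window. Clpb, a mitochondrial disaggregase, had 11.4-fold at chr7:101663280-101664074 with the summit 24 bp downstream of the TSS, and the nearest replicate 2 peak lay 111778 bp away. A peak at chr12:84450975-84451563 served the divergent pair Aldh6a1, an enzyme of valine breakdown, and Lin52, a subunit of the MuvB core of cell cycle gene control. It reached 11.2-fold and a −log10 q of 31.3, and the nearest replicate 2 peak lay 39990 bp from Aldh6a1. Calcoco1, an autophagy receptor, had 10.9-fold with the summit 27 bp upstream and the nearest replicate 2 peak 48371 bp away. For Clpb, this pair and Calcoco1, the promoter thus had no replicate 2 peak closer than 39990 bp.

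In Rab19, Meig1 and Tnfrsf14 the summit lay outside the window that defined the promoter. Rab19, a small GTPase of vesicle transport, had 11.7-fold with the summit 1184 bp upstream, and a replicate 2 peak lay 1085 bp from a TSS. Meig1, a gene of spermatogenesis, had 11.4-fold with the summit 1293 bp upstream and a replicate 2 peak at 1103 bp. Tnfrsf14, the herpesvirus entry mediator, had 10.9-fold with the summit 1327 bp upstream and a replicate 2 peak at 1034 bp. Their place among replicate 1-only genes thus rested on where the replicate 2 peak ended.

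Several members had many peaks in their windows. Meig1 and Hypk, which encodes a partner of an N-terminal acetyltransferase, each had 7. Rab19, Dcun1d1, which promotes the neddylation of cullins, and Borcs5, a subunit of a complex that positions lysosomes, had 5 each. Dcun1d1 had its strongest peak at 7.36-fold, 169 bp downstream of the TSS, and no replicate 2 peak within 61403 bp. At the other end, the lowest −log10 q was 1.40, in Cx3cr1, the fractalkine receptor, and in Mthfd2l, a folate enzyme of mitochondria, both at 2.45-fold. Bcl2l2, which encodes the survival factor Bcl-w, and Gm20521 shared a peak of 2.28-fold with a −log10 q of 1.40, and Endog, a mitochondrial nuclease, had the same values at its own peak.

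The edge of the window separated genes with almost the same layout. Slc9a7, a sodium and proton exchanger, was replicate 1-only with a replicate 2 peak 1001 bp from a TSS, Vstm2a with one at 1004 bp and Ttyh2 with one at 1006 bp. Just inside, Tigar, a regulator of glycolysis, had its replicate 2 peak at 1000 bp, H2afy, which encodes a macroH2A histone, at 998 bp and Sirt1, a deacetylase, at 993 bp, and these counted as bound in both. In all, 48 replicate 1-only genes had their nearest replicate 2 peak between 1000 and 1100 bp from a TSS, and 43 member peaks overlapped a replicate 2 peak outside the windows of their genes. Members also shared peaks, since 260 of the 3412 lay in windows of more than 1 replicate 1-only gene. Another overlap was with neighbors, as 44 member peaks lay also at a gene bound in both, and 19 genes had only such peaks.

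Sequence does not enter the rule, and annotation enters through the protein-coding genes and their TSSs. Features of both were compared by class. The mean number of TSSs was 1.94 in replicate 1-only genes, 2.11 in genes bound in both and 1.74 in genes without a peak. Shares of genes were compared with Newcombe intervals widened over 8 comparisons, and an interval without 0 was counted as a difference. The intervals cover counting error over genes only, which are not replicates. A promoter was called CpG-rich when the 500 bp either side of the most 5′ TSS had a GC content of at least 50% and a CpG observed to expected ratio of at least 0.6. By this measure 61.5% of replicate 1-only genes were CpG-rich, against 76.4% of genes bound in both, a difference of -14.8 points (-18 to -11.7). Genes without a peak in either list were CpG-rich in 22.6%, so replicate 1-only genes exceeded them by 39.0 points (35.9 to 41.9). With a −log10 q of 5 or more required in both lists, the difference from genes bound in both was -8.20 points (-10.9 to -5.54). The replicate 1-only promoters thus lay between the other classes and nearer to those bound in both. Mean promoter GC was 57.4 ± 7.76% (SD over 2233 genes), against 59.1 ± 7.27% (7792 genes) and 50.8 ± 10.2% (11360 genes).

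The CpG difference was also seen within a narrower range of peak strength. The range was a −log10 q from 4 to 8 of the strongest replicate 1 peak, chosen after seeing the data. It held 975 replicate 1-only genes and 1220 bound in both. Strength was not matched inside it. In the ranked class from 4.64 to 6.07, 49.2% of genes lacked a replicate 2 peak, and in that from 6.07 to 7.60, 38.7% did. The CpG-rich share differed by -12.4 points (-17.9 to -6.83) in the range from 4 to 8. Read the other way, 18.8% of CpG-rich promoters bound in replicate 1 lacked a replicate 2 peak, against 31.8% of other bound promoters. In the class with a −log10 q of at least 20, the strongest, these shares were 1.43% and 4.15%, and below 5 they were 58.6% and 71.3%.

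Divergent promoters were less common among replicate 1-only genes than among genes bound in both. A divergent partner, meaning another protein-coding TSS on the other strand within 1 kb, was present in 10.6% of all protein-coding genes, in 12.8% of replicate 1-only genes and in 21.9% of genes bound in both, a difference of -9.14 points (-11.4 to -6.73). Among genes without a peak the share was 2.46%, which is 10.3 points lower than in replicate 1-only genes (8.48 to 12.4). In the range of −log10 q from 4 to 8, the difference from genes bound in both was -2.75 points with an interval that included 0 (-6.84 to 1.45). A bound divergent promoter counts for both of its genes, so these genes share their peaks.

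Repeats were the last of these features, added after seeing the data. The strongest summit lay in repeat-masked sequence in 10.9% of replicate 1-only genes and in 7.58% of genes bound in both, a difference of 3.34 points (1.46 to 5.43). With a −log10 q from 4 to 8 the difference was 0.749 points (-2.79 to 4.42). Outside these comparisons, 53.8% of the 370 replicate 2-only genes were CpG-rich, 7.57% had a divergent partner and 4.59% were X-linked. Their strongest replicate 2 summit lay in repeat-masked sequence in 15.4%. In CpG-rich promoters, divergent partners and X linkage they lay farther from genes bound in both than replicate 1-only genes did. Their summit share is from replicate 2 and that of genes bound in both from replicate 1, so these are not directly comparable.

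**Figure D2:**
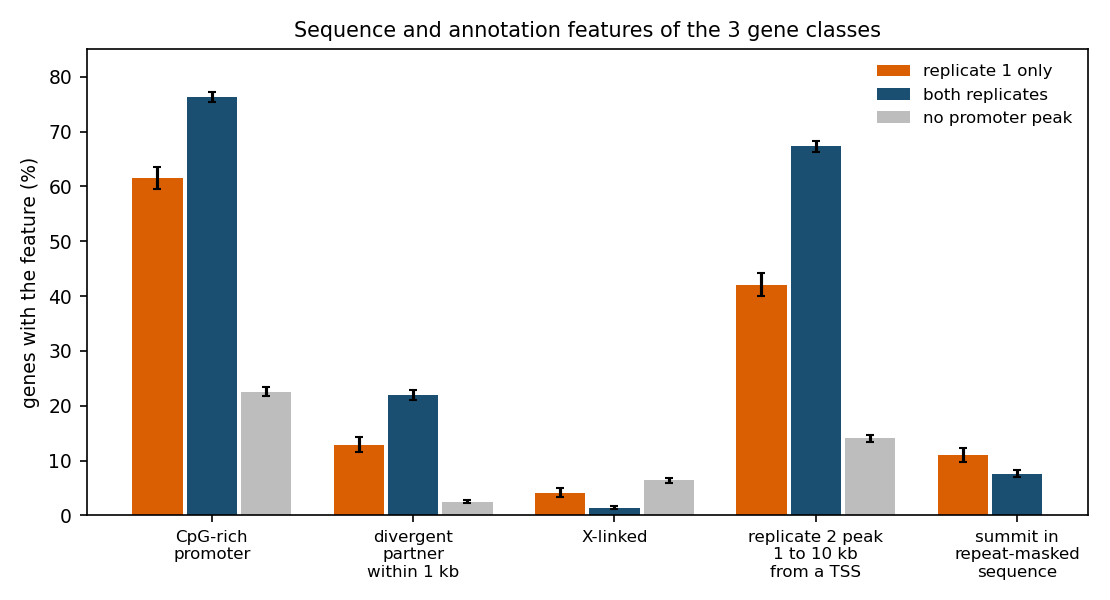
Percent of genes with each of 5 features (vertical axis) among replicate 1-only genes, genes with promoter peaks in both libraries and genes with none, with Wilson 95% intervals as lines; the summit feature has no value for genes without a peak. Replicate 1-only genes lie between the other classes shown for CpG-rich promoters (61.5%), divergent partners (12.8%), X linkage (4.03%) and replicate 2 peaks 1 to 10 kb away (42.1%). Replicate 2-only genes are not drawn.

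X-linked genes were rare among genes bound in both and less so among replicate 1-only genes. They made up 4.36% (948) of all protein-coding genes, 4.03% (90 of 2233) of replicate 1-only genes, near the share over all genes, and 1.42% (111 of 7792) of genes bound in both. Replicate 1-only genes exceeded those bound in both by 2.61 points (1.53 to 3.95). In genes without a peak the share was 6.43%, and replicate 1-only genes were lower by 2.40 points, given as a difference of -2.40 (-3.59 to -0.964). Of the 201 X-linked genes with a replicate 1 promoter peak, 44.8% (38.1 to 51.7) had none in replicate 2. The 19 autosomes ranged from 18.4% on chromosome 18 to 25.7% on chromosome 2, with 21.8% over all of them, so the X chromosome lay outside the autosomal range.

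Peaks on the X chromosome were also weaker. The median −log10 q of the strongest replicate 1 promoter peak was 7.60 on the X chromosome and 12.7 on autosomes, and the median fold was 5.07 against 6.34. Within strength classes, 31.1% (20.9 to 43.6) of X-linked genes with a −log10 q from 10 to 20 were replicate 1-only, against 11.9% (10.8 to 13) of autosomal genes. From 5 to 10 the shares were 46.6% (35.6 to 57.9) and 36.0% (34.2 to 37.9), and below 5 they were 73.5% (59.7 to 83.8) and 63.0% (60.3 to 65.6). At 20 and above, 1 of 18 X-linked genes (5.56%) was replicate 1-only, with 2.05% of autosomal genes. The share was thus higher on the X chromosome in each class. The intervals of the X chromosome and the autosomes overlapped in every class but that from 10 to 20, and in the range from 4 to 8 the difference between replicate 1-only genes and those bound in both was 1.56 points (-0.538 to 3.89). Peak strength and X linkage went together, and the part of peak strength in the result was not tested.

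Among the X-linked members were Tlr13, an endosomal sensor of bacterial ribosomal RNA, at 9.13-fold and a −log10 q of 22.5, and Taf1, the largest subunit of the general transcription factor TFIID, at 7.61-fold and 16.5. Ndufb11, a subunit of respiratory complex I, reached 6.85-fold. Il2rg, the common gamma chain of cytokine receptors, reached 4.31-fold, and Atp6ap1, an accessory subunit of the proton pump of lysosomes, 3.81-fold. Both replicate 1-only genes on the housekeeping list were X-linked. These were Pgk1, a glycolytic enzyme, at 3.81-fold with a summit 1060 bp downstream of the TSS, and Hprt, an enzyme of purine salvage, at 2.79-fold with a −log10 q of 1.63.

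**Figure D3:**
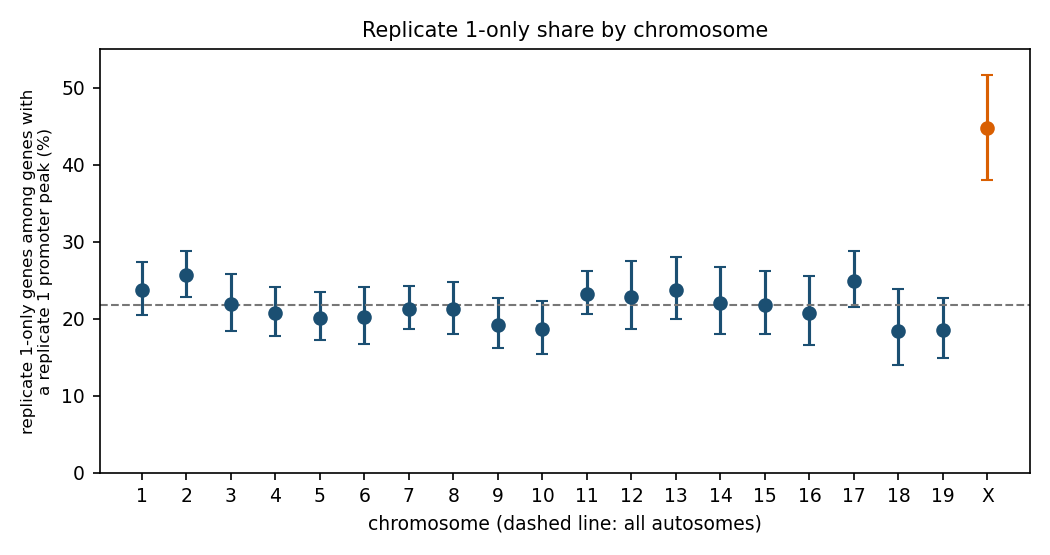
Percent of genes with a replicate 1 promoter peak that lacked one in replicate 2 (vertical axis) for each chromosome (horizontal axis), with Wilson 95% intervals. The 19 autosomes lie between 18.4% and 25.7% around the dashed line for all autosomes (21.8%), and the X chromosome lies at 44.8%.

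Summits of replicate 1-only genes were spread more widely around the TSS. The median position of the strongest summit was -109 bp, where a minus sign means upstream, with quartiles at -407 and 66 bp. In genes bound in both, the median was -80 bp and the quartiles lay at -245 and 52 bp. Within 250 bp of the TSS lay 45.0% of summits in replicate 1-only genes and 55.3% in genes bound in both. The commonest position was the same in both classes, as the 100 bp just upstream of the TSS held 18.8% and 23.4% of summits. The summits lay upstream of the TSS in 70.7% and 68.6%. Of the 370 replicate 2-only genes, 41.4% had their strongest replicate 2 summit within 250 bp of the TSS.

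Beyond the promoter window, replicate 2 peaks were more common near replicate 1-only genes than near genes without a promoter peak, and somewhat more common than near all genes. Such a peak lay between 1 and 10 kb from a TSS in 36.6% of all protein-coding genes and in 42.1% of replicate 1-only genes, against 14.1% of genes without a promoter peak, a difference of 28.0 points (25 to 31). In genes bound in both the share was 67.3%, where a promoter peak that reached past 1 kb also counted. The share over all genes includes such peaks too, so neither is the same measure as in genes without a replicate 2 promoter peak. The nearest replicate 2 peak lay at a median of 13757 bp from a TSS of a replicate 1-only gene and at 50842.5 bp in genes without a peak. For 292 replicate 1-only genes it lay between 1 and 2 kb, and for 381 it lay beyond 50 kb. When genes with a replicate 2 peak within 3 kb were left out of the class, 1817 replicate 1-only genes remained.

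The sequence within 100 bp of the strongest replicate 1 summit was searched for 19 motifs on both strands, and intervals were widened over the 19. The RBPJ core TGGGAA was found at 18.6% of summits of replicate 1-only genes and at 18.2% of genes bound in both, a difference of 0.431 points (-2.28 to 3.33). The longer form GTGGGAA, which contains the core, was found at 3.90% and 4.57%, with a difference of -0.673 points (-1.98 to 0.902). RBPJ motif content was thus not separated between the classes at this number of genes, with differences of more than 3.33 points in favor of replicate 1-only genes outside the interval for the core. For scale, the promoters of all protein-coding genes, from 250 bp before to 50 bp after the most 5′ TSS, held the core in 25.1% and the longer form in 6.04%. This promoter window is longer than the summit window and is placed by the TSS. Shares of all promoters, here and for the motifs below, are therefore not directly comparable with summit shares. Promoters of replicate 1-only genes held the core in 24.7%, those bound in both in 22.7% and those without a peak in 26.9%.

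The motifs that differed were mostly those of factors of CpG-rich promoters, and all 6 were less frequent in replicate 1-only genes. The ETS motif CCGGAAG, bound by GABPA among others, was found at 6.76% of summits against 13.3%, a difference of -6.51 points (-8.37 to -4.41). It occurred in 11.3% of all promoters. The SP and KLF motif GGGCGG was found at 23.1% against 33.3%, a difference of -10.2 points (-13.3 to -7.02), and in 45.3% of all promoters. For the NFY motif CCAAT the values were 31.1% and 35.6%, with a difference of -4.55 points (-7.85 to -1.13) and 38.7% of all promoters. The summit sequence as a whole also had less GC in replicate 1-only genes, with 48.8 ± 10.8% (SD, 2233 genes) against 52.5 ± 10.3% (7792 genes).

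The other motifs that were less frequent belonged to E-box factors and to CTCF. CACGNG, bound by HES and HEY factors that are themselves Notch targets, was found at 18% against 24%, a difference of -6.02 points (-8.76 to -3.08), and in 31.2% of all promoters. CACGTG, which CACGNG includes and which USF, MITF and TFE factors bind, was found at 4.75% against 6.88% (-2.13 points, -3.62 to -0.385) and in 7.85% of all promoters. AGGGGGC, a core of the CTCF motif, was found at 5.11% against 7.06% (-1.95 points, -3.49 to -0.162) and in 12.4% of all promoters. The last 2 calls held in a minority of the 13 alternative settings of the motif comparison, CACGTG being lower in 4 of them and AGGGGGC in 2. A control of base composition, in which each motif was reversed without complementing, gave 2 motifs that differed. The reversed letters of the SP and KLF motif were found at 22.7% against 32.4%, and those of the HES and HEY motif at 24.3% against 27.7%. For SP and KLF the reversed letters GGCGGG share GGCGG with the motif, so they are no separate control for it. The ETS, NFY, CACGTG and CTCF letters did not separate the classes when reversed. Reversal removes the CpG from the ETS and CACGTG letters and places a CpG in those of CTCF. For these motifs it is thus no control of CpG content, in which the classes differ.

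The ETS and SP and KLF differences were also present within CpG-rich promoters. There ETS was found at 7.42% against 14.4%, SP and KLF at 26.3% against 36.1%, NFY at 32.0% against 36.7% and HES and HEY at 21% against 25.9%, each with an interval that excluded 0, while CACGTG and AGGGGGC were not separated there. Among genes with a −log10 q from 4 to 8, however, only the SP and KLF motif was separated, at 23.1% against 29.0%. In that range the RBPJ core was found at 20% against 17%, a difference that was not separated.

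The remaining 11 motifs besides RBPJ's were not separated with the basic transcripts. With comprehensive transcripts, PU.1 (-1.42 points, -2.55 to -0.0254) and YY1 (-1.22 points, -2.17 to -0.0145) were lower in replicate 1-only genes. The largest difference among them was that of SMAD, with CAGACA at 13.7% against 12% (1.68 points, -0.657 to 4.25) and 18.7% of all promoters. GAGGAAGT, bound by the macrophage factor PU.1, was found at 2.64% against 3.71% (-1.07 points, -2.16 to 0.296) and in 3.24% of all promoters. TGTGGT of RUNX factors was found at 12.3% against 12.1% and AGGTCA of nuclear receptors at 9.63% against 9.48%, with 15.1% and 14.4% of all promoters. TGANTCA of AP-1 was found at 4.75% against 5.75%, and AAGATGGC of YY1 at 2.24% against 3.22%, with 6.67% and 2.99% of all promoters. TGACGTCA of CREB and ATF was found at 1.75% against 2.55%, and the interferon-stimulated response element of interferon regulatory factors at 2.78% against 3.13%, with 2.52% and 3.59% of all promoters. GCGCATGC of NRF1 was found at 2.10% against 2.35%, TACAATTCC of ZFP143 at 1.12% against 0.834% and TTGCGCAA of CEBP factors at 0.134% against 0.334%, with 3.51%, 0.510% and 0.216% of all promoters.

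**Figure D4:**
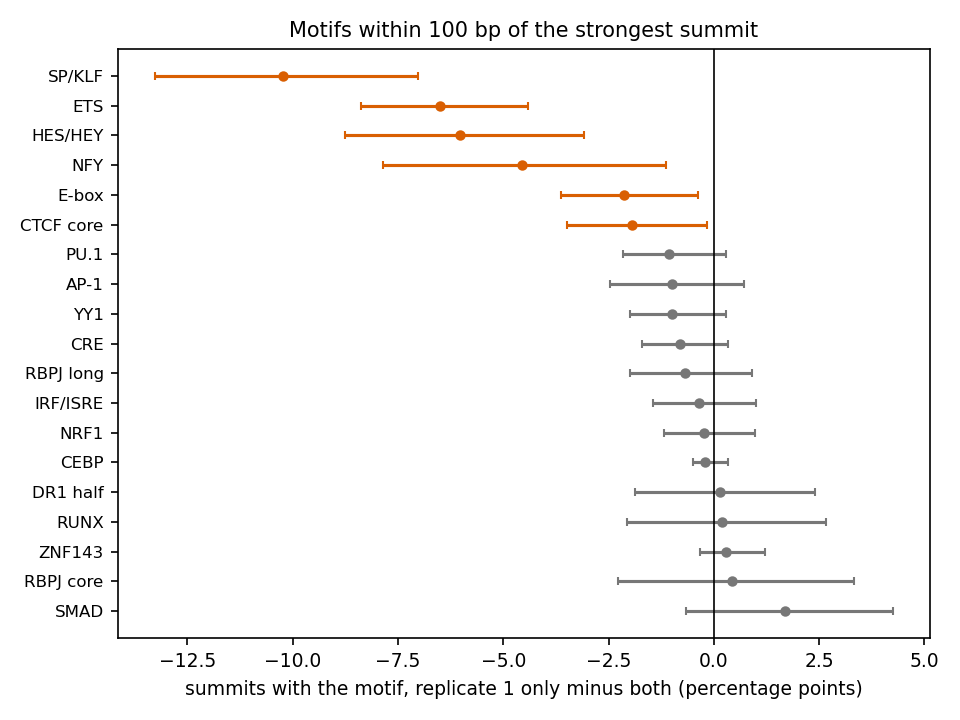
Difference in the percent of strongest summits with a motif within 100 bp, replicate 1-only genes minus genes bound in both, in percentage points (horizontal axis), for 19 motifs. Points are differences and lines are Newcombe intervals widened over the 19 motifs, colored where they exclude 0; 6 motifs lie below 0, from SP and KLF at -10.2 to the CTCF core at -1.95, and the RBPJ core lies at 0.431.

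Genes that define AMs were mostly bound in both. Of 25 AM identity genes, 2 were replicate 1-only, 22 were bound in both and 1 in neither, or 8% and 88%, against 10.3% replicate 1-only and 35.8% in both over all genes. The 2 members made up 8.33% of the list's genes bound in replicate 1, against 22.3% over all genes. The members were Marco, a scavenger receptor of AMs, with a peak of 4.05-fold at chr1:120504540-120504742 and its summit 362 bp downstream of the TSS, and Cpne5 at 4.57-fold. None of 25 macrophage transcription factors was replicate 1-only, a count of 0 that allows a share of up to 12%, and 23 were bound in both. Among 16 pan-macrophage genes, 1 was replicate 1-only and 14 were bound in both. This gene was Aif1, which encodes the macrophage marker IBA1, with 3.30-fold and its summit 684 bp upstream. These counts, like those of the lists and families below, were not tested.

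Lists of other cell types had replicate 1-only shares from 0% to 18.2% (neutrophil), against 10.3% over all genes. On the lists with any gene bound in replicate 1, only 1 to 6 were bound. Of these, 16.7% (monocyte and immature macrophage) to 100% (neuronal) were replicate 1-only, against 22.3% over all genes. None of 14 T and B lymphocyte genes had a promoter peak in either library, a count of 0 that allows a share of up to 21.4%. A single replicate 1-only gene each was found on the lists of endothelial cells (Vwf, the von Willebrand factor, 1 of 12), alveolar type II cells (Abca3, a lipid transporter of surfactant, 1 of 12), neurons (Dlg4, 1 of 14), liver and muscle (Apoa2, 1 of 12) and monocytes and immature macrophages (Cx3cr1, 1 of 13). Bound in both were 5 of the 13 monocyte and immature macrophage genes (38.5%), against 35.8% over all genes. The counts bound in both were 3 for alveolar type II cells, 2 for endothelial cells, 1 for liver and muscle and 0 for neurons. Of 11 neutrophil genes, 2 were replicate 1-only, S100a9 at 3.81-fold and Cxcr2 at 3.55-fold, and 2 were bound in both. The highest of these values was 5.07-fold, in Vwf, whose summit lay 980 bp upstream of the TSS.

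Components of the Notch pathway were mostly bound in both libraries. Of 43 pathway genes and RBPJ cofactors, 2 were replicate 1-only, 32 were bound in both and 9 in neither. The 2 made up 5.88% of the list's genes bound in replicate 1, against 22.3% over all genes. The replicate 1-only genes were cofactors. Ctbp1, a corepressor, and Hdac2 both had 4.57-fold and a −log10 q of 6.07, with summits 464 and 571 bp upstream. Among 15 canonical Notch targets, 3 were replicate 1-only, 5 were bound in both, 1 in replicate 2 only and 6 in neither. The 3 made up 37.5% of the 8 targets bound in replicate 1. Hes2, a repressor of the hairy family, had 4.57-fold with the summit 902 bp upstream of the TSS, Hey1, a related repressor, 3.81-fold with the summit 856 bp downstream, and Gata3, a transcription factor of T cells, 3.30-fold with the summit 959 bp upstream. All of these summits lay toward the edge of the window.

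Of 26 genes of GM-CSF and TGF-β signaling, the cytokines that AMs depend on, 2 were replicate 1-only and 19 were bound in both. The 2 made up 9.52% of those bound in replicate 1. Socs3, an inhibitor of cytokine receptor signaling, had one of the stronger peaks among listed genes, at 6.85-fold and a −log10 q of 13.6 with its summit 74 bp upstream of the TSS. Smad4, the common mediator of TGF-β signals, had 3.42-fold with the summit 1013 bp upstream.

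Metabolic lists varied in how much of their binding was seen in replicate 1 only. Of 21 glycolysis genes, 7 (33.3%) were replicate 1-only, the highest share of all genes on a list among the 24 lists. They made up 38.9% of the 18 genes bound in replicate 1, against 22.3% over all genes, a measure by which the neuronal, neutrophil and liver and muscle lists, with 1 to 4 bound genes each, were higher. They included Slc2a1, the glucose transporter GLUT1, at 5.33-fold with its summit 57 bp downstream of the TSS, Ldha, the lactate dehydrogenase subunit, at 4.82-fold with its summit 68 bp upstream, and Gpi1 and Aldoc, enzymes of the pathway, at 4.31 and 3.81-fold. Lipid metabolism had 4 of 28 genes, or 16.0% of those bound. Acadl, an enzyme of fatty acid oxidation, had 6.09-fold, Scd2, a desaturase, 5.33-fold, Apoe, an apolipoprotein, 4.31-fold and Fasn, the fatty acid synthase, 3.81-fold with its summit 44 bp upstream. Lysosomal genes had 4 of 36, or 11.4% of those bound. These were led by the protease Tpp1 at 6.85-fold with its summit 4 bp downstream, and included the sphingomyelinase Smpd1 at 4.57-fold. Complex I had 7 of 37 genes, or 22.6% of those bound, close to the share over all genes.

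Promoters of general cell machinery were almost all bound in replicate 1, and the lists differed in how many were also bound in replicate 2. All 34 proteasome genes had a replicate 1 peak, and 9 (26.5%) had none in replicate 2. Psmb6, a catalytic subunit, had 9.13-fold and a −log10 q of 22.5 with the summit 44 bp upstream of the TSS. Psmd13 and Psmd12, subunits of the regulatory particle, had 6.60 and 5.01-fold, and Psmb9, the immunoproteasome subunit, 5.33-fold. All 36 genes of core transcription and splicing had a replicate 1 peak as well, with 5 (13.9%) in replicate 1 only. These included the RNA polymerase II subunits Polr2g at 8.37-fold and Polr2e at 7.61-fold, and the splicing factor Sf3a1 at 4.82-fold. The housekeeping list had 2 of 16 genes in replicate 1 only, or 12.5%.

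Ribosomal protein genes differed between the cytosolic and the mitochondrial set. Of 84 cytosolic genes, 4 were replicate 1-only, or 5.19% of those bound in replicate 1. Rps24 and Rps10 were members with 5.07 and 4.31-fold, and the others were Rpl9-ps1, named as a pseudogene, and Rpl3l, a muscle form. Of 78 mitochondrial genes, 14 were replicate 1-only, or 18.9% of those bound, led by Mrps14 at 9.89-fold and Mrps30 at 8.37-fold. The difference between both sets was not tested.

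Genes of DNA repair had a replicate 1-only share above that of all bound genes, and genes of the cell cycle one slightly below it. Of 36 repair genes, 11 were replicate 1-only, or 32.4% of those bound in replicate 1. Xrcc1, a scaffold of single-strand break repair, had 6.60-fold, Ung, the uracil glycosylase, 6.34-fold, Trp53bp1, a mediator of double-strand break repair, 5.84-fold and Lig3, a DNA ligase, 5.33-fold. Of 38 cell cycle genes, 7 were replicate 1-only, or 19.4% of those bound. Mcm5 had the highest value and Mcm2, another helicase subunit, 5.07-fold. Cdc6, which loads the helicase, had 4.95-fold and Ccnb2, a mitotic cyclin, 4.82-fold. Of 28 apoptosis genes, 3 were replicate 1-only, or 12.5% of those bound, among them the BH3 protein Bid at 4.82-fold and Fas at 4.31-fold.

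The pattern recognition and interferon response lists had replicate 1-only shares of bound genes somewhat above the 22.3% over all genes. Over all bound promoters that were not CpG-rich, the share was 31.8%. Of 29 pattern recognition genes, 8 were replicate 1-only, or 28.6% of those bound. Besides Tlr13, these included Irak3, an inhibitor of Toll-like receptor signaling, at 6.09-fold with its summit 10 bp downstream of the TSS, Nod2 at 5.07-fold and Pycard, the inflammasome adaptor, at 4.06-fold. Of 33 interferon response genes, 6 were replicate 1-only, also 28.6% of those bound, and 12 had no peak. Ifi35 and Irf9, a part of the interferon-activated factor ISGF3, both had 6.85-fold with summits 10 bp upstream and 138 bp downstream of the TSS. Gbp3, a guanylate-binding protein, had 4.82-fold and Ifnar2, a chain of the interferon receptor, 4.57-fold.

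Chemokine genes had a high share of replicate 1-only members among those bound. Of 56 chemokines and chemokine receptors, 10 were replicate 1-only and 14 were bound in both, so that 41.7% of the bound genes lacked a replicate 2 peak. Ccl12, an attractant of monocytes, had 7.61-fold at chr11:82101114-82101888 with its summit 32 bp upstream. Ccl4, an inflammatory chemokine, had 6.04-fold with its summit 1293 bp downstream, Ccl17 4.50-fold and Cx3cl1, the ligand of the fractalkine receptor, 4.31-fold. Of 82 interleukins and their receptors, 9 were replicate 1-only, or 31.0% of those bound, led by Il18rap, a chain of the interleukin 18 receptor, at 5.33-fold. Il20rb had 4.15-fold and Il17d 4.06-fold. Of 68 tripartite motif genes, 8 were replicate 1-only, or 21.6% of those bound, with Trim69 at 6.60-fold, Trim14 at 5.33-fold and Trim12c and Trim21 at 5.07-fold each.

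**Figure D5:**
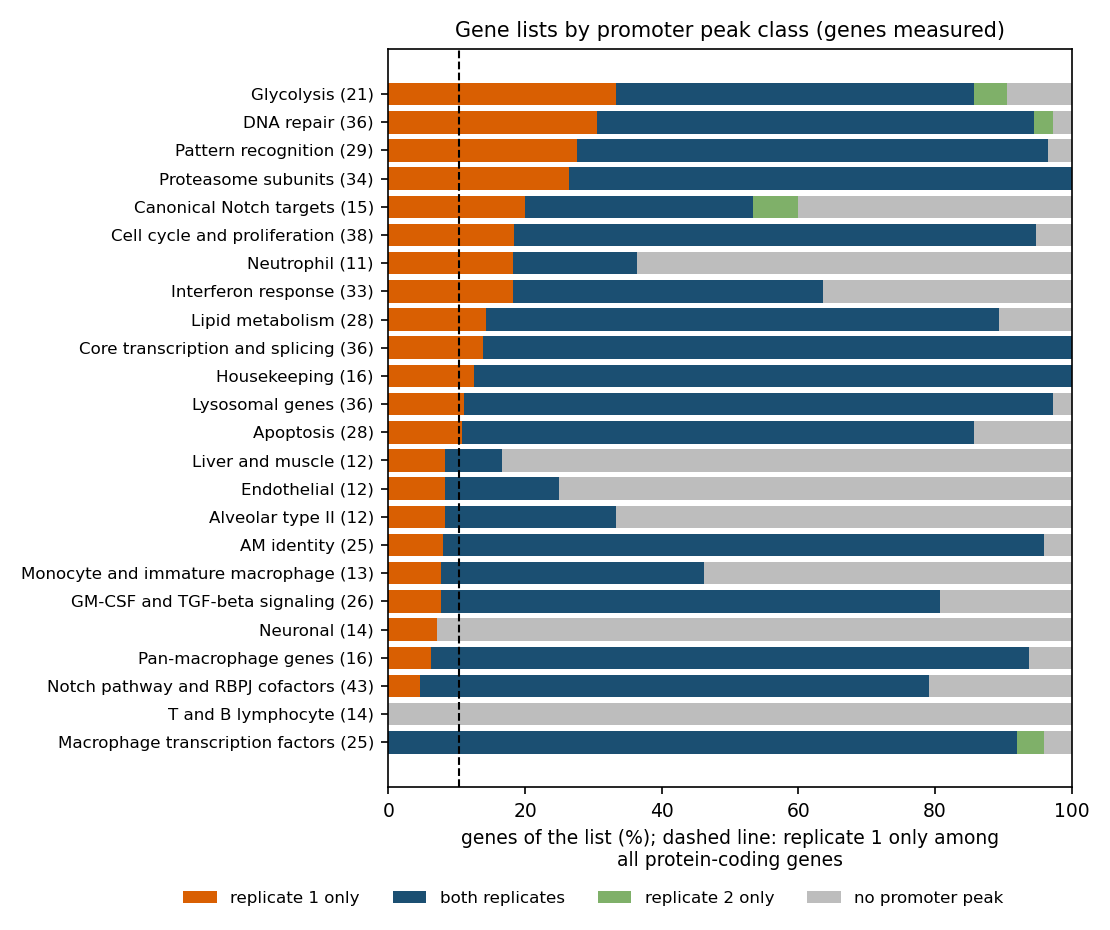
Percent of genes of 24 lists (rows, number of genes in brackets) by class of promoter peak: replicate 1 only, both libraries, replicate 2 only and no promoter peak. The dashed line marks 10.3%, the replicate 1-only share of all protein-coding genes; glycolysis (7 of 21) lies farthest above it and the macrophage transcription factors (0 of 25) and lymphocyte genes (0 of 14) lie at 0.

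Gene families with a shared name covered more genes. Zinc finger genes were the largest group of members, in a family of 424 genes. Of these, 76 (17.9%) were replicate 1-only, against 10.3% over all genes, and 189 were bound in both. The 76 made up 28.7% of the family's genes bound in replicate 1, against 22.3% over all genes. Zfp871 had 9.89-fold and a −log10 q of 25.7 with its summit 45 bp upstream of the TSS, Zfp729b 8.88-fold and Zfp959 7.87-fold. Of 242 genes named as transmembrane proteins, 40 were replicate 1-only, or 30.5% of those bound, led by Tmem59 at 8.12-fold and Tmem38a at 7.61-fold. Of 371 solute carriers, 36 were replicate 1-only, or 22.8% of those bound, with Slc25a12, a mitochondrial carrier, at 6.85-fold. Of 39 kinesins, 8 were replicate 1-only, or 33.3% of those bound, with Kif7, a regulator of Hedgehog signaling, at 6.09-fold, Kif21b at 5.33-fold and Kif18a and Kif1a at 4.82-fold.

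Other families had small numbers of replicate 1-only genes, on either side of the share over all bound genes. Of 55 ubiquitin-specific proteases, 2 were replicate 1-only (Usp21 and Usp40), or 5.41% of those bound, and 35 were bound in both. Of 66 replication-dependent histone genes, 6 were replicate 1-only, or 10.2% of those bound, and 53 were bound in both. Besides Hist1h1t they included Hist1h1b, at 9.89-fold with its summit 1162 bp downstream, and Hist2h3c2, at 4.59-fold with its summit 1058 bp downstream. Histone genes are short and clustered, and these summits lay beyond the window of their own TSS. Tubulins had 1 of 17 (Tuba1a), or 11.1% of those bound, voltage-gated and related potassium channel genes 3 of 81 (Kcnk5, Kcnk4 and Kcne3), or 30% of 10 bound, and Wnt and Frizzled genes 2 of 29 (Fzd2 and Fzd5), or 33.3% of 6 bound.

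Families with expression restricted to other tissues were mostly without peaks. Among 1135 olfactory receptor genes, 16 (1.41%) were replicate 1-only, 19 replicate 2-only and 7 bound in both, while 1093 had no promoter peak. Each library thus had more olfactory genes of its own than the libraries shared. These genes, like the histone and zinc finger genes, have close copies in the genome, and how reads from such copies were assigned was not tested. Olfr433 and Olfr432, which lie next to each other on chromosome 1, had 6.98 and 6.01-fold, and Olfr460 had 5.91-fold. Vomeronasal receptors had 2 of 331 in replicate 1 only (Vmn1r21 and Vmn2r106) and 5 in replicate 2 only, keratins and keratin-associated proteins 1 of 110 (Krt80), collagens 1 of 45 (Col11a2) and Hox genes 2 of 39 (Hoxa5 and Hoxa9).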

How the data were processed

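RBPJ HT-ChIPmentation libraries of WT AMs were compared by their peak lists. The submitters' processing notes and the study's methods name bcl2fastq (version 2.20.0.422), CASAVA, Cutadapt, Bowtie2 (mm10) and SAMtools for the reads, and MACS3, which called peaks per library against input at q 0.05. The deposited columns hold the authors' fold enrichment, −log10 p and −log10 q, a display score (not used) and the summit offset. Fold and −log10 q served to describe and rank peaks within a list. Read depth was not analysed here.

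Python 3.11.15 (pandas 2.3.3, SciPy 1.17.1, pysam 0.24.0) was used with GRCm38 and basic GENCODE M21 transcripts of protein-coding genes on the autosomes and X; neither list had peaks on Y. Shares carry Wilson 95% intervals. The steps were checked on simulated data. The members, the 24 gene lists, the 20 families and the motifs were chosen with earlier results of these data known. Named genes were the 10 highest in −log10 q and in fold, the 5 with most peaks, the 5 lowest in −log10 q, up to 4 per list or family, and 3 either side of the window edge. Values of 2 of these named genes are not reported here. Alternatives changed the window, thresholds, transcripts and definitions.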

Additional observations from a re-analysis of the deposited data

How the results depend on the processing

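Across 16 alternatives, 112 values were recomputed, 100 of them on the same side of the test or within 1.5 times the count, and none changed direction. The number of replicate 1-only genes fell to 1419 with 1743 peaks when replicate 1 peaks needed a −log10 q of 5 or more, and to 1214 with 1431 peaks when the longer list was cut to the length of replicate 2; both remove weak peaks by construction. With a −log10 q of 5 or more in both lists it was 3332, and the differences shrank to -8.20 points for CpG-rich promoters against genes bound in both, 16.1 points for nearby replicate 2 peaks and 1.73 points for repeat-masked summits. A stricter CpG definition (GC of 55% and a ratio of 0.75) lowered the difference from genes without a peak to 22.1 points. The 6 motifs that differed became 3 with 500 bp windows and with either of the first 2 thresholds, 2 with reversed letters, 7 with comprehensive transcripts and 1 among genes with a −log10 q from 4 to 8. In that range, an alternative chosen after seeing the data, the differences between replicate 1-only genes and those bound in both included 0 for divergent partners (-2.75 points), X linkage (1.56 points) and repeat-masked summits (0.749 points). The cause was not tested. The repeat feature was also added after seeing the data. Leaving out a library cannot give a value, because the rule needs both lists. No paired analysis was possible because the inputs had no list of their own here and peak presence comes from no fitted test.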
